A study of Mus musculus with 21 samples.

Results

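*Agrp*, *Npy*, *Pomc* and *Cartpt* encode the peptides by which AGRP and POMC neurons of the hypothalamic arcuate nucleus are recognised. They were taken by symbol and are 4 of the 35266 genes in the deposited RNA-Seq tables, and each was read in every library, including the libraries of the cell type that does not define it. All 4 passed the low-count filter, which 16513 genes passed. The 21 libraries each came from the fluorescent neurons of 1 male mouse on a C57BL/6J background, aged postnatal day 46 to 56. AGRP neurons were picked by hand from the NPY-hrGFP line, with 5 ad libitum fed (fed) and 6 food-deprived (FD) mice, and POMC neurons from the Pomc-GFP line, with 5 fed and 5 FD mice. FD mice went without food, but not water, for 24 hours, and the fed mice were rehoused at the same time. The cells were chosen by a reporter for *Npy* or *Pomc*, so the difference of these genes between the cell types is a check of the sort, and the cells called AGRP neurons were not selected by *Agrp* itself.

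AGRP neurons promote feeding and POMC neurons restrain it over longer periods. POMC is a precursor that is cut into several peptides, among them alpha-melanocyte stimulating hormone, which activates melanocortin receptors in the brain, while agouti-related peptide (AGRP) blocks the same receptors. Neuropeptide Y (NPY) acts on its own family of receptors and is released by the same neurons as AGRP, whereas the peptides made from *Cartpt* (cocaine- and amphetamine-regulated transcript) are found in many POMC neurons and in other hypothalamic cells.

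Gene counts per library ran from 9822298 to 37663979 (median 19189780), and 44 to 214 cells were sorted per mouse. A floor of 3 counts lay at 0.0797 to 0.305 CPM (gene counts scaled for library size) and covers counting error alone, since amplified reads without molecular identifiers are not independent molecules. Where weights were recorded, FD mice changed by -19.4 ± 1.75% (SD, n = 3, AGRP) and -17.7 ± 1.64% (n = 5, POMC) of body weight, and fed mice by 0.622 ± 0.224% (n = 3) and 0.954 ± 0.915% (n = 5). The sum of *Rbfox3*, *Snap25*, *Syt1* and *Tubb3*, markers of neurons, was 2274 to 5082 TPM (transcript level scaled for gene length) over all libraries, while oligodendrocytes (4 markers) summed to 16.0 to 47.8 TPM, mostly *Mbp* (13.9 to 40.1 TPM). Pituitary cells (5 markers) reached at most 28.5 TPM in sum, astrocytes (4) 14.1, tanycytes and ependymal cells (3) 11.7, microglia (4) 11.5, with *C1qa* at 0 in every library, and endothelial cells (4) 10.2. Of 6 genes listed as markers of other arcuate neurons, *Sst* read 440 to 2334 TPM in AGRP and 0.587 to 213 in POMC libraries, and each of the others at most 29.8 TPM. Which cells held the *Sst* RNA was not tested, nor was the part of any of these other cell types in the results. The labels give the volume of ERCC spike-in RNA for each library. By that volume the libraries were grouped into 3 sets, a fixed 1 µl, a fixed 10 µl, or a volume in proportion to the sorted cells. AGRP fed replicate 5 and AGRP FD replicate 3 had spike-in mix 2 and the other libraries mix 1. AGRP FD replicate 2, with 1 µl for 50 cells, meets both the first and the last description and was counted with the cell-number set. Each of the 3 sets held fed and FD mice among the AGRP libraries. Among POMC libraries only the 1 µl set held both (3 fed, 3 FD). The 10 µl set was FD replicates 4 and 5, and the cell-number set was fed replicates 1 and 2, which were also the only POMC libraries from postnatal day 51. Among AGRP libraries the cell-number set was also the mice of postnatal day 46 to 47, and the others were from day 51 to 55, so set and age cannot be told apart there. In the 4 POMC libraries of the 10 µl and cell-number sets, feeding state and spike-in set cannot be told apart.

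The 4 genes lie on separate chromosomes of mm10. *Agrp* (ENSMUSG00000005705) spans chromosome 8, 105566698 to 105637393, on the minus strand. *Npy* (ENSMUSG00000029819) spans chromosome 6, 49822710 to 49829507, on the plus strand. *Pomc* (ENSMUSG00000020660) spans chromosome 12, 3954951 to 3960618, on the plus strand, and *Cartpt* (ENSMUSG00000021647) spans chromosome 13, 99898484 to 99900683, on the minus strand. The exon lengths that relate deposited counts to deposited TPM were 817, 566, 1007 and 874 bases, in the same order. Exons of *Agrp* overlap those of *Gm5914* in GENCODE M21, and reads were counted without strand, so reads of the pair can be confused. *Gm5914* held 16 to 246 counts in AGRP libraries, at most 0.645% of the *Agrp* count, but 8 to 97 counts in POMC libraries, between 4.73 and 185% of the *Agrp* count there. The low *Agrp* values of POMC libraries are therefore less certain than those of AGRP libraries.

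The RefSeq (GRCm38.p6) promoter table used here matched 3 of the 4 genes, and the 250 bases upstream of their start sites are shown because these are the regions next to the genes whose transcript levels are compared. They are written 5′ to 3′ on the strand of the gene, for *Npy* from chr6:49822460-49822709 (plus), for *Pomc* from chr12:3954695-3954944 (plus) and for *Cartpt* from chr13:99900684-99900933 (minus). Capitals mark a TATA box (TATAAA) and a cAMP response element (TGACGTCA, or its first 5 letters TGACG).
Npy: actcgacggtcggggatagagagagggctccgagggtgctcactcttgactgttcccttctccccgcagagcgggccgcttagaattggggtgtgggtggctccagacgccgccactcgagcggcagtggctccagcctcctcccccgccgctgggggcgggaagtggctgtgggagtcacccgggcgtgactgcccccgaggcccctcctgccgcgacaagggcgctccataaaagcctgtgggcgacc
Pomc: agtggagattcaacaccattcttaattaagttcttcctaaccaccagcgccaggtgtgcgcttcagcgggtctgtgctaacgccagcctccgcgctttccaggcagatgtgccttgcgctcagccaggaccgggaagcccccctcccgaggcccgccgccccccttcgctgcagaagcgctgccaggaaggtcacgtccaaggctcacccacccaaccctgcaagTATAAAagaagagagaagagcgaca
Cartpt: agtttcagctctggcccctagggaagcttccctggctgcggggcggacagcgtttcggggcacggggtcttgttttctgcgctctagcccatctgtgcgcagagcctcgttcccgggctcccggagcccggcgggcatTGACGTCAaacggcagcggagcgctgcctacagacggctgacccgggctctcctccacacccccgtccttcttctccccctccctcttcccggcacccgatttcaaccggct
The *Pomc* sequence holds TATAAA starting 25 bases before the start site, letters present in 12.4% of 32851 RefSeq promoters of the same length. The *Cartpt* sequence holds TGACGTCA starting 112 bases upstream, found in 1.55% of these promoters, and TGACG, which is part of it and is found in 17.8%. All 3 hold GGGCGG (a GC box), as did 32.7%. Matches were sought on both strands, and TGTTTAC (FOXO, 3.17% of promoters), TTCNNNGAA (STAT, 7.02%) and CACGTG (an E-box, 6.02%) were not among these letters. The bases are GC-rich, at 69.2% (*Npy*), 60.0% (*Pomc*) and 66.8% (*Cartpt*), against a median of 52.4% over all promoters.

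Levels are given as deposited TPM, which allow for gene length. In bulk libraries fewer cells expressing a gene and less RNA per cell cannot be told apart. *Npy* was the most abundant gene by TPM in all 11 AGRP libraries, and *Pomc* was first in 9 of 10 POMC libraries and second in FD replicate 1. *Agrp* ranked 7 to 26 in fed and 2 to 5 in FD AGRP libraries, and *Cartpt* ranked 2 to 17 in fed and 9 to 39 in FD POMC libraries. In the other cell type the best rank of any library was 3303 for *Agrp*, 1260 for *Npy*, 3219 for *Pomc* and 1031 for *Cartpt*.

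**Figure D1:**
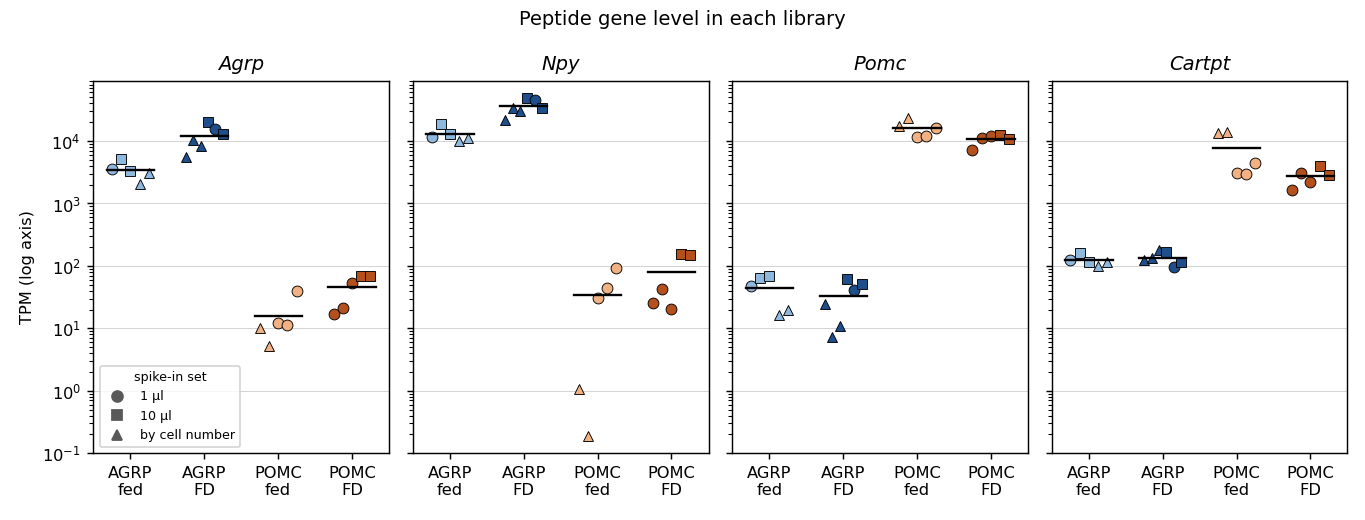
TPM (log axis) of each gene in each of the 21 libraries, by group, with the marker shape giving the spike-in set and the line the group mean. *Agrp* and *Npy* sit highest in FD AGRP libraries without touching the fed ones (lowest FD 5484 and 21766, highest fed 5238 and 18444), whereas the 2 triangles of fed POMC neurons stand apart for *Cartpt* (13694 and 14096) and *Npy* (1.05 and 0.185).

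*Agrp*, the melanocortin receptor antagonist, rose with deprivation in AGRP neurons. Its level in fed AGRP libraries was 3578, 5238, 3337, 2053 and 3072 TPM in replicates 1 to 5 (mean 3455 ± 1153, SD, n = 5). In the 6 FD libraries it ran from 5484 over a median of 11601 to 19928 TPM (mean 12049.8 ± 5194, n = 6). Every FD library lay above every fed library, although the lowest FD value, replicate 1, was close to the highest fed value, replicate 2. The ratio of mean TPM was 3.49, and the log2 fold change from the counts was 2.08 (standard error 0.39, q = 0.000531). Here q is the Benjamini-Hochberg adjusted p of edgeR's two-sided quasi-likelihood test over the 16513 genes, fitted to all 21 libraries. The FD to fed ratio of normalized CPM within spike-in sets was 2.41 on the log2 scale in the 1 µl set (1 against 1 library), 2.21 in the 10 µl set (2 against 2) and 1.84 in the cell-number set (3 against 2). With FD replicate 2 moved to the 1 µl set, these ratios were 2.18 (1 µl) and 1.57 (cell number). With libraries scaled by spike-in per sorted cell instead, the log2 fold change of *Agrp* was 1.78 and its q was 0.512.

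*Npy*, which encodes the orexigenic peptide of the same cells, was higher by nearly as much but missed the threshold of 0.05. Fed AGRP libraries held 11647, 18444, 12991, 10011 and 11384 TPM in replicates 1 to 5 (mean 12896 ± 3277, SD, n = 5). FD libraries ran from 21766 over a median of 34256 to 48993 TPM (mean 35821 ± 10037, n = 6), again with no overlap. The log2 fold change was 1.74 (standard error 0.59, q = 0.0558). In a fit of the 11 AGRP libraries alone, the log2 fold change was 1.73 with a standard error of 0.22 and q = 3.80e-05, and limma-voom on all libraries gave q = 1.47e-07 while DESeq2 gave q = 0.165. Within the spike-in sets the log2 FD to fed ratio of normalized CPM was 2.27 (1 µl), 1.67 (10 µl) and 1.62 (cell number), or 2.13 (1 µl) and 1.41 (cell number) with FD replicate 2 moved to the 1 µl set.

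Of the 4 genes, 1 (*Agrp*) was called in FD against fed AGRP neurons, with q under 0.05, a log2 fold change over 1 in size and, in at least 1 of the groups, over 20 CPM as the mean. Over all tested genes 4.46% were called (410 higher, 326 lower). The values of 2 of the 4, *Agrp* and *Npy*, did not overlap between the groups, against 7.65% of tested genes, and the median log2 fold change of all tested genes was -0.02. *Pomc* and *Cartpt*, at low level in these cells, did not pass, with log2 fold changes of -0.13 (standard error 0.39, q = 0.898) and 0.41 (standard error 0.34, q = 0.546).

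*Npy* and *Agrp* varied together among the FD AGRP libraries, but not over the same range. The highest FD library held 4.79 times the normalized CPM of the lowest for *Agrp* and 2.96 times for *Npy*. The ratio of *Npy* to *Agrp* TPM was 3.85 ± 0.621 in fed (SD, n = 5) and 3.17 ± 0.587 in FD AGRP libraries (n = 6), and *Npy* exceeded *Agrp* in each of the 11. The log2 ratio of counts was 1.40 ± 0.22 in fed and 1.11 ± 0.27 in FD libraries, a difference of -0.29 (two-sided exact permutation p = 0.108, adjusted over 4 tests of single values 0.144) and did not pass. In the cell-number set, with 3 FD and 2 fed libraries, the means were 1.34 and 1.56. Among the 6 FD AGRP libraries the log2 normalized CPM of both genes varied together, with Pearson's r = 0.979 (exact permutation p = 0.00417) and Spearman's rho = 0.943 (exact permutation p = 0.0167), adjusted over 2 correlations 0.00833 and 0.0333. Without the libraries farthest from the median of *Agrp*, FD replicates 1 and 4, r was 0.861. The 3 libraries of the cell-number set had the 3 lowest *Agrp* values of the 6, and no set held the 6 libraries set as the fewest for a correlation. Within the cell-number set normalized CPM rose in the same order for both genes, at 1333, 2236 and 3072 for *Agrp* and 3667, 5652 and 7101 for *Npy*, in FD replicates 1, 3 and 2.

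**Figure D2:**
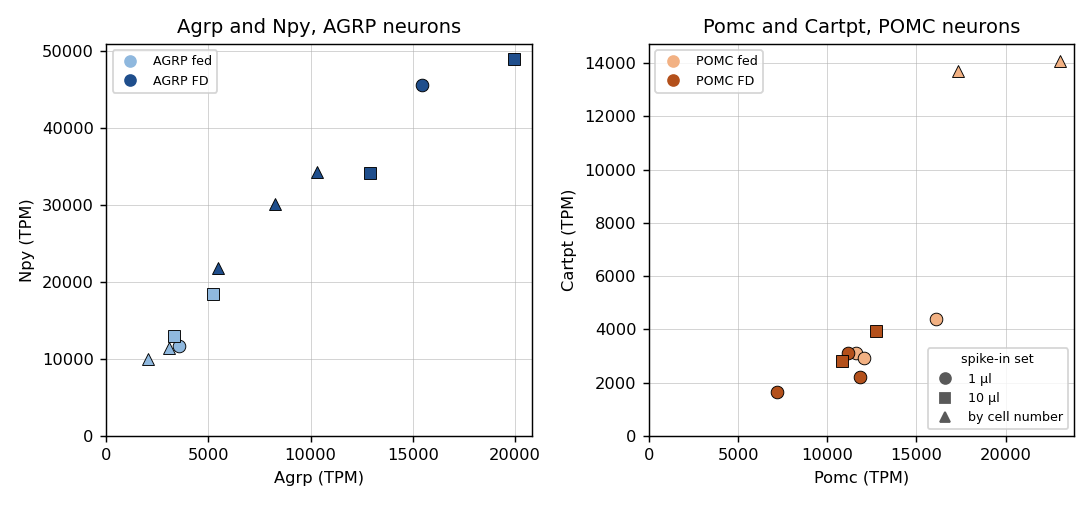
TPM of *Npy* against *Agrp* in the 11 AGRP libraries (left) and of *Cartpt* against *Pomc* in the 10 POMC libraries (right), with colour for feeding state and marker shape for the spike-in set. The AGRP libraries lie along 1 band from 2053 to 19928 TPM of *Agrp*, while 2 fed POMC libraries lie apart at 13694 and 14096 TPM of *Cartpt* and the other 8 POMC libraries at 1647 to 4389.

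*Pomc*, the precursor of the melanocortins, was lower on average in FD than in fed POMC neurons without passing the test. Fed POMC libraries held 17310.2, 23063, 11586, 12069.5 and 16116 TPM in replicates 1 to 5 (mean 16029 ± 4651, SD, n = 5). FD libraries held 7162, 11142, 11833, 12728 and 10852 TPM (mean 10743 ± 2129, n = 5). The groups overlapped, since fed replicates 3 and 4 lay below FD replicate 4. The log2 fold change was -0.73 (standard error 0.39, q = 0.473), and limma-voom gave -0.70 with q = 0.0377. With the spike-in set as a block it was -1.35 (q = 0.0762). In the 1 µl set the log2 ratio of mean normalized CPM was -0.43 (3 against 3 libraries, two-sided exact permutation p = 0.2, where 0.1 is the smallest p possible).

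*Cartpt* fell in FD POMC neurons in the fit of all libraries, and the fall rested on 2 fed mice. Fed POMC libraries held 13694, 14096, 3101, 2913 and 4389 TPM of *Cartpt* in replicates 1 to 5 (mean 7639 ± 5741, SD, n = 5), and FD libraries 1647, 3119.8, 2191, 3937 and 2821 TPM (mean 2743 ± 877, n = 5). Fed replicates 1 and 2 stood at over 3 times the next library, and the other 3 fed values overlapped the FD values. On the log2 scale it changed by -1.69 (standard error 0.36, q = 0.0233). Without fed replicate 1 it was -1.31 (q = 0.113), without fed replicate 2 also -1.31 (q = 0.109), and q was over 0.05 as well without FD replicate 1, 3 or 5 (0.0699, 0.0676 and 0.0503). Fed replicates 1 and 2 were the cell-number spike-in set and also held the highest *Pomc*. In the 1 µl set *Cartpt* averaged 911 normalized CPM in fed and 605 in FD libraries, a log2 ratio of -0.62 (two-sided exact permutation p = 0.2, smallest possible 0.1), and a fit with that set as the only POMC libraries gave -0.59 (q = 0.525).

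In POMC neurons 1 of the 4 genes (*Cartpt*) was called, while 0.266% of tested genes were called (21 higher, 23 lower), and 0 of the 4 were free of overlap between fed and FD, against 2.35% of tested genes. The ratio of *Cartpt* to *Pomc* TPM was 0.437 ± 0.250 in fed (SD, n = 5) and 0.253 ± 0.0477 in FD POMC libraries (n = 5), and *Pomc* exceeded *Cartpt* in each of the 10. Fed replicates 1 and 2 had count ratios of 0.687 and 0.530, and the other 8 POMC libraries lay between 0.161 and 0.268. The log2 count ratio differed by -0.63 between FD and fed (exact permutation p = 0.167, adjusted 0.167), and the means in the 1 µl set were -2.33 in FD and -2.15 in fed libraries.

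**Figure D3:**
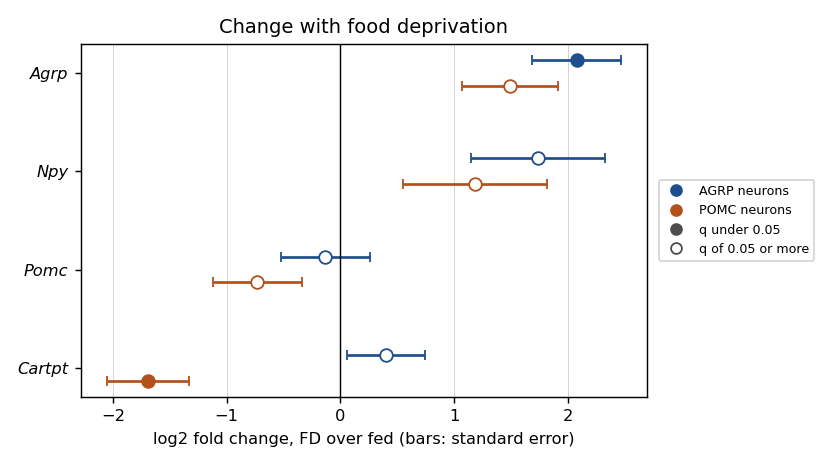
Log2 fold change of FD over fed (x axis) for each gene in AGRP and in POMC neurons, with bars for the standard error of the fit and filled points for q under 0.05. *Agrp* in AGRP neurons (2.08) and *Cartpt* in POMC neurons (-1.69) are the filled points, and *Npy* in AGRP neurons (1.74) has a q of 0.0558.

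Together the 4 genes took 0.316 ± 0.0991% of gene counts in fed (SD, n = 5) and 0.971 ± 0.355% in FD AGRP libraries (n = 6). FD libraries ran from 0.519 to 1.51% and fed libraries from 0.221 to 0.482%, with no overlap (two-sided exact permutation p = 0.00433, adjusted 0.0173). In POMC neurons the share went the other way, at 0.770 ± 0.394% in fed and 0.3998 ± 0.0884% in FD libraries (n = 5 and 5), with p = 0.0476 by the exact permutation test and 0.0952 after adjustment. Fed POMC replicates 1 and 2 held 1.09 and 1.29%, and the other 3 fed libraries 0.426, 0.450 and 0.595%, next to 0.257 to 0.502% in FD libraries.

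**Figure D4:**
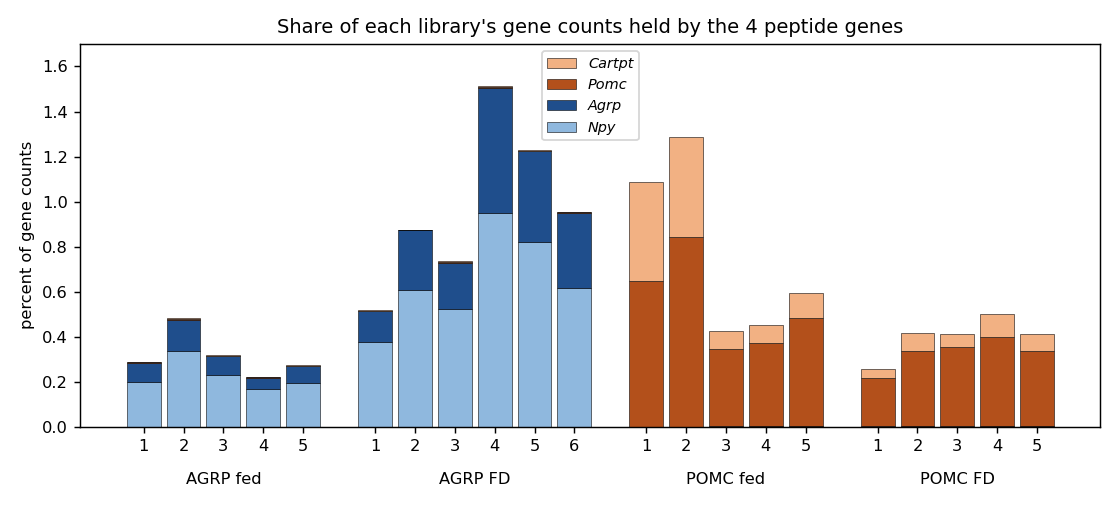
Percent of a library's gene counts taken by each of the 4 genes, stacked, for the 21 libraries numbered by replicate within their group. The FD AGRP bars reach 0.519 to 1.51% and the fed AGRP bars 0.221 to 0.482%, and fed POMC replicates 1 and 2 (1.09 and 1.29%) are the highest of the POMC bars.

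Between the cell types each gene differed by a factor of over 10, in fed and in FD mice alike, and all 4 were called in both comparisons. The cells were picked by reporters for *Npy* and *Pomc*, so for these genes the calls only check the sort. In fed mice 4.02% of tested genes were called between AGRP and POMC neurons and 8.93% did not overlap. In FD mice these shares were 8.11 and 11.4%. *Agrp*, which was not the gene behind either reporter, was higher in AGRP neurons by 7.69 on the log2 scale in fed (standard error 0.52, q = 3.71e-12) and 8.27 in FD mice (0.53, q = 9.02e-13). *Npy* gave 8.52 (0.82, q = 6.48e-09) and 9.07 (0.83, q = 1.49e-09). *Pomc* gave -8.74 (0.55, q = 7.23e-13) and -8.14 (0.49, q = 3.72e-13). *Cartpt* was the least divided of the 4, at -6.23 (0.44, q = 1.08e-11) in fed and -4.13 (0.37, q = 1.03e-09) in FD mice. With the 1 µl set as the only POMC libraries, which leaves out fed replicates 1 and 2, *Cartpt* gave -4.89 in fed and -3.90 in FD mice. Over the 4 groups the order of mean TPM was FD AGRP, fed AGRP, FD POMC, fed POMC for *Agrp* and for *Npy*. It was fed POMC, FD POMC, fed AGRP, FD AGRP for *Pomc* and fed POMC, FD POMC, FD AGRP, fed AGRP for *Cartpt*. Neighbours in these orders overlapped for fed and FD POMC neurons with all 4 genes and for fed and FD AGRP neurons with *Pomc* and *Cartpt*.

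The difference of the FD to fed change between the cell types was tested by the interaction term, for which 4.55% of genes were called. *Cartpt* was called, with a log2 difference of 2.1 (AGRP minus POMC, standard error 0.50, q = 0.00876), while *Agrp* (0.58, 0.56, q = 0.625), *Npy* (0.56, 0.85, q = 0.781) and *Pomc* (0.60, 0.55, q = 0.611) were not. The *Cartpt* difference was 0.99 (q = 0.0918) with the 1 µl set as the only POMC libraries, and limma-voom gave 1.81 (q = 0.358). With that set alone the *Npy* difference was 2.67 (q = 0.000751). These p values share libraries with the comparisons above.

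*Agrp* and *Npy* were not at 0 in POMC libraries. *Agrp* read 9.98, 5.27, 12.0, 11.5 and 38.9 TPM in fed replicates 1 to 5 (55, 41, 75, 54 and 184 counts) and 16.8, 21, 54.2, 68.9 and 69.3 TPM in FD replicates 1 to 5. The groups overlapped, and the log2 fold change was 1.50 (standard error 0.42, q = 0.102). It was 0.57 (q = 0.828) with the 1 µl set as the only POMC libraries and 1.006 (q = 0.232) with the spike-in set as a block. As a percent of the mean in AGRP neurons of the same feeding state these levels averaged 0.449% in fed and 0.382% in FD mice. *Npy* read 1.05, 0.185, 30.1, 44.8 and 93.4 TPM in fed and 25.8, 42.6, 20.2, 157 and 149 TPM in FD replicates 1 to 5, on average 0.263 and 0.220% of the level in AGRP neurons. The log2 fold change of *Npy* was 1.19 (standard error 0.63, q = 0.469), and in the 1 µl set alone it was -0.93 (q = 0.463). Fed replicates 1 and 2 held 4 counts and 1 count of *Npy*, the second under the floor of 3 counts, and FD replicates 4 and 5, the 10 µl set, held the highest *Npy* and *Agrp* of all POMC libraries.

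The other genes of the AGRP side, *Corin*, *Otp*, *Acan* and *Tgfbi*, were low in the same POMC libraries. Their summed level was 0.333 and 0.224 TPM in fed replicates 1 and 2, 2.29 to 3.35 TPM in the other 3 fed libraries and 0.858, 17.6, 3.13, 16.1 and 13.8 TPM in FD replicates 1 to 5, against 763 to 1440.0 TPM in AGRP libraries. Their part in the low *Agrp* and *Npy* values was not tested. Over the 10 POMC libraries *Agrp* and *Npy* had r = 0.744 (permutation p = 0.00941, adjusted 0.00941) and rho = 0.624 (permutation p = 0.0599, adjusted 0.0599), and r = 0.609 without FD replicates 4 and 5. Within the 6 libraries of the 1 µl set r was 0.0304 (exact permutation p = 0.95) and rho -0.257 (exact permutation p = 0.658), so the relation over the 10 libraries did not hold within that set.

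*Pomc* and *Cartpt* were read in every AGRP library. *Pomc* was 47.4, 64.1, 69.7, 16.1 and 19.98 TPM in fed replicates 1 to 5 and ran from 7.35 over a median of 32.6 to 60.9 TPM in FD libraries, on average 0.271 and 0.304% of the level in POMC neurons of the same state. The libraries of the cell-number set, which were also the mice of postnatal day 46 to 47, lay below all others. On the normalized CPM scale *Pomc* was 2.70 to 7.32 in the 5 libraries of the cell-number set, 13.0 and 13.8 in the 1 µl set and 16.5 to 24.0 in the 10 µl set, fed and FD libraries together. FD replicate 2 (2.70), which could also be counted with the 1 µl set, would then make those sets overlap. *Cartpt* had a narrower range, at 125, 159, 116, 97.9 and 116 TPM in fed replicates and 97.5 to 180 TPM (median 128) in FD libraries, 1.61% of the POMC level in fed and 4.96% in FD mice. The AGRP means behind these percents were close (123 TPM in fed, 136 in FD), and the POMC means were 7639 and 2743 TPM. The fed POMC mean included replicates 1 and 2 at 13694 and 14096 TPM. *Cartpt* exceeded *Pomc* in all 11 AGRP libraries, the reverse of their order in POMC neurons. The POMC-side genes *Nhlh2*, *Nkx2-1*, *Tac1* and *Prdm12* summed to 0.0 to 14.2 TPM in AGRP libraries against 267 to 518 TPM in POMC libraries, the highest sums (14.2 and 12.6 TPM) being in FD replicates 1 and 2, where *Pomc* was 24.4 and 7.35 TPM. *Tac1* alone reached 14.2 TPM in FD AGRP libraries, and *Nhlh2*, *Nkx2-1* and *Prdm12* at most 0.393, 0.577 and 1.10 TPM. Their part in these values was not tested.

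**Figure D5:**
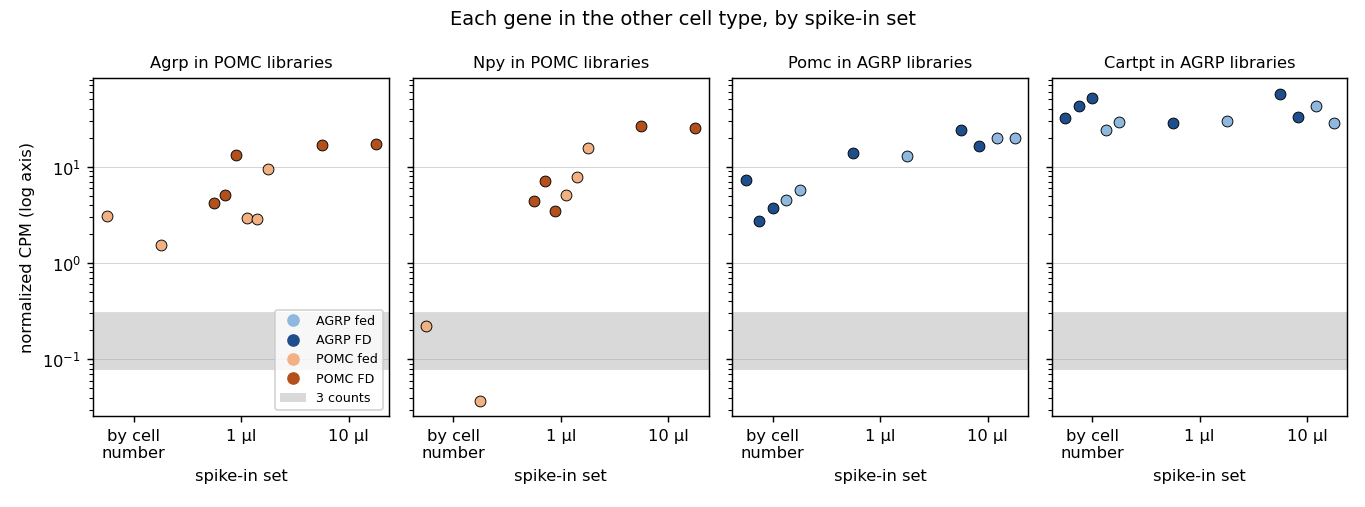
Normalized CPM (log axis) of each gene in the libraries of the other cell type, arranged by spike-in set, with the grey band for the CPM that 3 counts give. *Pomc* in AGRP libraries is 2.70 to 7.32 in the cell-number set and 13.0 to 24.0 in the other 2 sets, and *Npy* in the cell-number POMC libraries (0.221 and 0.037) lies within or under the band.

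A list of 13 genes held the receptors through which these peptides act and the accessory genes *Mrap2*, *Sdc3* and *Atrn*. Of the 13, 11 could be tested. In FD against fed AGRP neurons 0 were called higher and 2 lower, beside 4.46% of all tested genes called in either direction. The median log2 fold change was -0.75 beside -0.02 over all tested genes. It includes barely expressed genes, *Npy4r* (-4.17), *Mc5r* (-3.13) and *Mc1r* (1.47), each with a mean of at most 3.24 TPM in AGRP neurons. *Npy2r*, a receptor for NPY that sits on NPY-releasing neurons themselves, fell from 560 ± 78.7 TPM (SD, n = 5) to 98.5 ± 51.9 (n = 6; log2 -2.30, standard error 0.23, q = 6.30e-08). *Mrap2*, an accessory protein of melanocortin receptors, fell from 58.3 ± 22.0 to 23.1 ± 10.4 TPM (-1.11, standard error 0.28, q = 0.00763). *Mc3r* was 74.6 ± 11.6 TPM in fed and 42.7 ± 21.1 in FD AGRP neurons (q = 0.386), while *Mc4r* was too low to test. In POMC neurons 0 genes of this list were called in either direction, beside 0.266% of all tested genes. *Npy1r*, another NPY receptor, was higher in POMC than AGRP neurons, at 295 ± 69.6 against 45.2 ± 23.9 TPM in fed mice (AGRP over POMC -2.91, standard error 0.30, q = 2.73e-08) and -2.36 in FD mice (0.28, q = 1.53e-07). *Npy5r* and *Oprm1* were also called higher in POMC neurons in both states, whereas *Npy2r* was higher in fed AGRP neurons (1.62, standard error 0.24, q = 1.94e-05). Of this list the interaction was called for *Npy2r* alone (-2.20, q = 7.97e-05), beside 4.55% of all tested genes.

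Of 8 genes that process the precursors or break peptides down, 2 were called higher in FD AGRP neurons and 0 in FD POMC neurons, with 0 lower in both. Over all tested genes 4.46% were called in AGRP and 0.266% in POMC neurons, in either direction. *Pcsk1*, a convertase that cuts prohormones, went from 100.1 ± 28.4 TPM (SD, n = 5) to 265 ± 66.1 (n = 6; log2 1.69, standard error 0.23, q = 6.52e-06). *Cpe*, the carboxypeptidase that trims the cut peptides, went from 844 ± 347 to 1668 ± 767 TPM (1.25, standard error 0.26, q = 0.00145). *Pcsk2* (0.66, q = 0.0134) and *Pam* (0.61, q = 0.00418) passed the q threshold with a smaller fold change. In POMC neurons *Pcsk1* was 144 ± 13.5 TPM in fed and 171 ± 36.3 in FD mice (0.11, q = 0.908). The interaction was called for *Pcsk1*, *Cpe* and *Pam*, at 1.58 (q = 0.00190), 1.32 (q = 0.0249) and 1.04 (q = 0.00139). Over all tested genes 4.55% were called for the interaction.

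Among a list of 11 transcription factors linked to the 4 genes, 1 was called in FD against fed AGRP neurons and 1 in POMC neurons. The shares called over all tested genes were 4.46% in AGRP and 0.266% in POMC neurons. *Foxo1*, which acts on *Agrp*, *Npy* and *Pomc* downstream of insulin and leptin, rose in AGRP neurons from 129.7 ± 42.2 TPM to 243 ± 29.2 (1.16, standard error 0.27, q = 0.00511). *Stat3*, the mediator of leptin signalling, fell in POMC neurons from 139.9 ± 19.996 TPM (SD, n = 5) to 59.3 ± 12.6 (n = 5; log2 -1.38, standard error 0.21, q = 0.000504). The 1 µl set alone held 247 ± 36.4 normalized CPM of *Stat3* in fed and 110.2 ± 31.0 in FD POMC libraries (n = 3 and 3). *Bsx*, a homeobox factor of AGRP neurons, read 1.79 ± 2.06 TPM in fed and 17.6 ± 18.0 in FD POMC libraries and 145 ± 43.4 in fed AGRP libraries (FD against fed in POMC neurons 3.09, q = 0.0504). The interaction was called for *Stat3* (1.80, q = 0.000158) and *Bsx* (-3.20, q = 0.0354), beside 4.55% of all tested genes. Between the cell types *Foxo1*, *Bsx*, *Otp* and *Nr3c1* were called higher in AGRP neurons and *Nhlh2* and *Nkx2-1* higher in POMC neurons, in both feeding states. In FD mice alone *Stat3* was also called higher in AGRP neurons and *Tbx3* higher in POMC neurons. Over all tested genes 4.02% were called between the cell types in fed and 8.11% in FD mice.

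Of 4 genes for hormone input, 2 rose in AGRP neurons and none was called in POMC neurons. *Lepr*, the leptin receptor, went from 48.2 ± 15.9 to 212 ± 46.5 TPM (2.39, standard error 0.21, q = 6.04e-09) and *Ghsr*, the ghrelin receptor, from 129 ± 47.0 to 357 ± 53.1 TPM (1.72, standard error 0.37, q = 0.00200). In POMC neurons *Lepr* was 31.4 ± 4.00 TPM in fed and 21.2 ± 4.80 in FD mice (-0.69, q = 0.126). *Ghsr* was barely present there, at 1.90 ± 1.43 TPM in fed and 0.659 ± 0.572 in FD mice (-1.78, q = 0.0890). Its lowest FD POMC library held 0.266 normalized CPM, within the range of the floor of 3 counts. The interaction was 3.09 for *Lepr* (q = 3.18e-08) and 3.50 for *Ghsr* (q = 0.000360), and that of *Ghsr* rests in part on these low POMC values. Over all 4 lists 34 of 36 genes were tested, and 5 were called higher and 2 lower in FD AGRP neurons (4.46% of all tested genes were called), with a median log2 fold change of 0.20 beside -0.02 for all tested genes. In POMC neurons 0 were higher and 1 lower (0.266% of all tested genes), with a median of -0.06 beside -0.02.

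The genes whose level over the 21 libraries was most like that of each peptide gene were found by Pearson correlation of log2 normalized CPM among the 8205 genes whose mean passed 20 CPM in any group. All libraries enter together, so these values are set mostly by the gap between the cell types, and they are given as a description. For *Agrp* they were *Npy* (r = 0.974), *Ptprk*, *Ghr*, *Acan* and *Il2rg* (0.969). *Ghr*, the growth hormone receptor, read 426 TPM in fed and 863 in FD AGRP neurons and 74.6 and 76.4 in fed and FD POMC neurons. For *Npy* they were *Otp* (r = 0.987), *Agrp*, *Foxo1*, *Ptprk* and *Calcr* (0.957), and *Calcr*, the calcitonin receptor, was lower in FD (211 TPM) than in fed AGRP neurons (346 TPM). For *Pomc* they were *Nkx2-1* (r = 0.991), *Nhlh2*, *Cckar*, *Gm13425* and *Prdm12* (0.982), which read 0.0142 to 0.767 TPM on average in AGRP neurons and 9.55 to 196 in POMC neurons. For *Cartpt* they were *Pomc* (r = 0.957), *Cdh13*, *Stmn2*, *Nkx2-1* and *Calb1* (0.940). With Spearman's rho, 1, 2, 0 and 1 of the 5 genes were shared, in the order *Agrp*, *Npy*, *Pomc*, *Cartpt*.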

How the data were processed

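Neurons were sorted by hand from 21 mice, 1 library per mouse, and the replicates of a group are different mice. The authors trimmed reads with cutadapt 1.7.1, filtered abundant sequences (ribosomal and mitochondrial RNA among them) by Bowtie2 2.1.0, mapped the rest to mm10 with STAR 2.4.0i and counted unique reads per gene with HTSeq 0.6.1p1, without strand, and deposited these as raw counts for 35266 genes, beside 92 ERCC and 5 summary entries that were kept apart. Reads assigned to no gene made up 25.5 to 53.0% of the table. The authors also deposited TPM, made from the counts and the summed exon length of each gene. Reads that overlapping genes or near-identical copies share are uncertain.

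Groups came from the sample titles. Genes with over 1 CPM in at least 3 libraries (16513) were fitted with edgeR 4.0.16 in R 4.3.3 (TMM scaling, quasi-likelihood test, 4 groups, two-sided, Benjamini-Hochberg adjustment), where normalized CPM are CPM on TMM-scaled library sizes. Filter, scaling and call criteria follow the study's methods, and its limma-voom test (limma 3.58.1) and DESeq2 1.42.0 were alternatives. Single values were compared by exact permutation in Python 3.11.15 with scipy 1.17.1, correlations over 10 libraries by 100000 permutations, and logs used log2 of normalized CPM + 0.1. Figures were drawn with matplotlib 3.10.9. The test was run on simulated counts with changes added to known genes. Those counts held no difference between spike-in sets, so they say nothing about that limit. Named genes were the 4 members, for each member the 5 genes with the highest Pearson r, and, from lists of receptors, processing enzymes, transcription factors and hormone inputs, the genes called in a comparison, and other list genes given with values were chosen after these were seen. The members and lists were chosen with earlier results of these data known. Promoter sequences came from a RefSeq (GRCm38.p6) table, and that of *Agrp* was not analysed here.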

Additional observations from a re-analysis of the deposited data

Results flagged for a closer look

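*Agrp* in fed POMC neurons had 1 library far from the others. Fed replicate 5 read 9.45 normalized CPM, and the nearest of the other 4 read 3.04. Chance sets about 1 in 20 groups of this size apart in this way, and 24 groups were examined for the 4 genes, their ratios and their shares. The same library held the most *Npy* of the fed POMC libraries (15.7 normalized CPM), while its sum of the AGRP-side genes *Corin*, *Otp*, *Acan* and *Tgfbi* (2.61 TPM) lay within the 2.29 to 3.35 TPM of the fed libraries in the 1 µl set. The part of other cells in this value was not tested.

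The change of *Cartpt* with deprivation differed between the cell types, by the interaction test, with a log2 difference of 2.1 (AGRP minus POMC neurons, q = 0.00876). The change was 0.41 in AGRP and -1.69 in POMC neurons. Fed POMC replicates 1 and 2, the cell-number spike-in set, carried the highest *Cartpt*, and feeding state and spike-in set cannot be told apart there. With the 1 µl set as the only POMC libraries the difference was 0.99 (q = 0.0918).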

How the results depend on the processing

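The comparisons of AGRP with POMC neurons kept their direction and stayed past the threshold for all 4 genes in fed and FD mice, under every alternative run and in every fit that left 1 library out. For *Npy* and *Pomc*, the genes of the reporters, these comparisons only check the sort. The 2 calls of FD against fed were less stable, and the cause of the changes below was not tested. Scaling by spike-in per sorted cell moved *Agrp* in AGRP neurons to 1.78 (q = 0.512), *Cartpt* in POMC neurons to -3.30 (q = 0.0651) and its interaction to 3.86 (q = 0.0646), and gave -2.06 for *Pomc* and 0.36 for *Agrp* in POMC neurons. It also moved the median of all tested genes, to -1.11 for FD against fed POMC neurons, 1.10 for the cell types in FD mice and 1.04 for the interaction. *Npy* in AGRP neurons passed with limma-voom (1.74), in the fit that dropped the count filter (1.75), with the compared groups alone (1.73) and with the spike-in set as a block (1.85, or 1.65 with AGRP FD replicate 2 in the 1 µl set), and leaving out 1 library gave 1.57 to 1.94 (q 0.0415 to 0.125). *Cartpt* in POMC neurons did not pass with limma-voom (-1.37), the compared groups alone (-1.69, q = 0.0890), the replicate number as a block (-1.50, q = 0.0886), the spike-in set as a block (-1.31, q = 0.0522, or -1.32 with that library moved) or the 1 µl set alone (-0.59), and leaving out 1 library gave -1.91 to -1.31. In POMC neurons *Agrp* passed without the count filter (1.51, q = 0.0286). It ran from 1.29 to 2.104 with 1 library left out, and passed without fed replicate 5 (2.104, q = 0.0120). It was 1.006 with the spike-in block and 0.57 in the 1 µl set. In the same neurons *Pomc* passed with limma-voom (-0.70) and was -1.35 with the spike-in block (q = 0.0762), and *Npy* turned to -0.93 in the 1 µl set. The interaction of *Cartpt* did not pass with limma-voom (1.81) or in the 1 µl set (0.99), and that of *Npy* turned to -0.71 with limma-voom and was 2.67 in the 1 µl set. With 1 library left out the interaction ran from -0.0244 to 0.82 for *Agrp* and -0.26 to 0.95 for *Npy*, and *Pomc* in AGRP neurons ran from -0.51 to 0.0923. The *Npy* to *Agrp* ratio ran from -0.36 to -0.20, passing (exact permutation p = 0.0476) without FD replicate 1. The share of the 4 genes in POMC neurons differed by -0.234 percentage points over all reads (exact permutation p = 0.111) and by -0.456 to -0.240 with 1 library left out. The 1 µl set alone and the moved library were chosen after seeing the data.

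Equal replicate numbers mark different mice, and same-numbered libraries had correlations of their deviations between -0.168 and 0.106, so they were not treated as paired. The replicate block changed no other call. The compared groups alone could not be run for the interaction. Depth limits the low end, since *Npy* rests on 4 counts and 1 count in fed POMC replicates 1 and 2. Spike-in set, age and feeding state cannot be told apart for 4 of the 10 POMC libraries.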
